A study of Mus musculus with 21 samples.

Results

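The neural lineage genes described here are 9 genes followed in mouse embryonic stem cells that had lost Trim71 or Ago2 or that expressed a peptide blocking Argonaute. They were Sox1, Sox3, Sox11, Pax6, Nes, Tubb3, Map2, Ncam1 and Celf4, taken by symbol as 9 of the 22512 gene rows of the count table. Each was present in the table and each passed the filter on low counts in every fit, so all 9 were tested. The question was whether loss of Trim71 goes with higher levels of neural genes in cells kept under self-renewal conditions.

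The series holds 21 total RNA libraries, in 7 groups of 3 that the labels place in 2 experiments. Experiment 1 compared untransfected cells (W) with the edited lines Trim71-/- (Trim71KO) and Ago2-/- (Ago2KO). In Experiment 2, unedited cells were transfected with pCIP FH-T6B_WT::mCherry (T6B_WT) or its mutant FH-T6B_MUT::mCherry (T6B_MUT), and the edited lines with empty plasmid (Trim71KO_empty and Ago2KO_empty). The series text calls the replicates biological without saying what separated them, so p-values measure the spread between these libraries. All groups, controls included, share a 129S6/SvEvTac background, the construct yGlob [GFP_5xT71BS] and stably transfected FLAG-Cas9::T2A::Blasticidin. Cells were grown on gelatin in medium with serum and LIF. Whether an edited line is 1 clone is not stated in the labels. Experiment 2 holds no unedited group with empty plasmid, so there genotype and plasmid differ together when an edited line is set against T6B_MUT.

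TRIM71 is a conserved RNA-binding protein of stem cells and early embryos that represses the mRNAs it binds, and AGO2 is the Argonaute protein that microRNAs guide to their targets. Argonaute silences a bound mRNA through TNRC6 proteins (the GW182 family), and the T6B peptide, a part of TNRC6B, occupies Argonaute in their place. When embryonic stem cells leave pluripotency toward the neural lineage, SOX1 and PAX6 appear in the neural plate and its progenitors together with the intermediate filament nestin, and SOX11, TUBB3, MAP2 and NCAM1 follow as neurons form.

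The microRNAs that dominate embryonic stem cells share 1 seed, and the mature sequences of 4 of them are shown because loss of Ago2 and T6B both touch microRNA repression. Capitals mark bases 2 to 8, the seed, and the sequences are those of RefSeq for GRCm38.p6.
miR-291a-3p: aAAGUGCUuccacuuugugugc
miR-294-3p: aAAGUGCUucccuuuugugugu
miR-295-3p: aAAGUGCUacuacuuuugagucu
miR-302b-3p: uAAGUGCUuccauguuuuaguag
let-7a-5p: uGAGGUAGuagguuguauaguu
The last line is let-7, the family that rises on differentiation and is known to repress Trim71.

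The DNA match to the first seed, AGCACTT, was searched on the sense strand in the longest annotated 3′ UTR of each gene. It occurred in 2474 of 14908 genes (16.6%) and in 1 of the 9 neural genes, Pax6. The Pax6 match lies at chr2:105696455-105696482 on the plus strand of GRCm38, at position 112 of a 3′ UTR of 1009 bases, and is not followed by A.
Pax6: atggcggttagaAGCACTTcactttgta
Capitals mark the match. The let-7 match, CTACCTC, occurred in 1518 of the 14908 genes (10.2%) and in none of the 9. The searched 3′ UTRs of the 9 genes ran from 391 bases for Tubb3 to 6957 bases for Sox11.

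The edited genes were read first, as CPM (counts scaled to a common library size by the TMM method). Trim71 stood at 602, 602 and 618 CPM in W and at 412, 416 and 459 CPM in Trim71KO, and at 482, 493 and 503 CPM in T6B_MUT and 405, 409 and 393 CPM in Trim71KO_empty. Its mRNA was lower but present in the edited line. Ago2 stood at 134 to 153 CPM in W and 39.8 to 43.6 CPM in Ago2KO. In Experiment 2 it stood at 112 to 143 CPM in T6B_MUT, but at 87.4, 166.5 and 45.6 CPM in replicates 1, 2 and 3 of the libraries labelled Ago2KO_empty. Replicate 2 lay above every T6B_MUT library, so the log2 fold changes and counts of calls printed below for this group are also given without it. Trim71 and Ago2 each overlap an antisense gene in the annotation.

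The libraries held between 29.6 M and 57.9 M counts. The 9 embryonic stem cell markers examined, Pou5f1, Nanog and Sox2 among them, were higher as a sum in the Trim71-edited line. They summed to 3710 to 3960 CPM in W and 4910 to 5250 in Trim71KO, and to 3980 to 4040 in T6B_MUT and 5110 to 5270 in Trim71KO_empty, with no overlap in either experiment. In Trim71KO 6 of the 9 were called higher (16.9% of all genes) and 1 lower (15.6%), with a median log2 fold change of 0.58. The lower one was Dppa3, named after its values were seen. In Trim71KO_empty 6 were higher (14.4% of all genes) and none lower (13.4%), with a median of 0.43. Ago2KO (3920 to 4070 CPM), T6B_WT (4080 to 4140) and the libraries labelled Ago2KO_empty (4030 to 4400) had medians of 0.02, 0.03 and 0.05 (−0.02 without replicate 2). In the Trim71-edited groups Nanog was called higher in both, Sox2 only in Trim71KO_empty, and Pou5f1 in neither (log2 fold changes −0.02 and −0.03). Nanog was also called higher in Ago2KO, T6B_WT and the libraries labelled Ago2KO_empty, and Sox2 in the last 2. Of the 9 markers, 2 were higher (9.29% of all genes) and 1 lower (6.69%) in T6B_WT. In Ago2KO_empty 2 were higher (16.4%) and 2 lower (12.4%). Without replicate 2, Sox2 alone was higher (12.4%) and 2 were lower (11.2%). Pou5f1 was called lower in T6B_WT (−0.24, adjusted p 0.0483, edgeR quasi-likelihood) and in the libraries labelled Ago2KO_empty. It stood at 927 to 989 CPM in T6B_MUT and 780 to 861 in T6B_WT. Replicates 1, 2 and 3 of Ago2KO_empty held 726, 663 and 848 CPM of Pou5f1. The neural genes other than Tubb3 stood at 0.14 to 40.2 CPM. Markers of other lineages moved with the groups too. The 6 endoderm markers measured of 7 listed summed to 24.8 to 28.5 CPM in W, 4.78 to 5.04 in Trim71KO, 7.44 to 9.25 in Ago2KO, 16.8 to 16.9 in T6B_MUT, 13.7 to 16.0 in T6B_WT, 6.31 to 9.01 in Trim71KO_empty and 10.3 to 14.1 in the libraries labelled Ago2KO_empty. The 6 mesoderm markers of 7 listed summed to 8 to 8.47 CPM in W and 14.0 to 16.2 in Ago2KO. In Experiment 2 they summed to 6.22 to 7.07 CPM in T6B_MUT, 10.6 to 11.2 in T6B_WT and 10 to 12.8 in the libraries labelled Ago2KO_empty, so these 3 groups lay clear above their controls. Trim71KO, at 6.06 to 7.45 CPM, lay below W, and Trim71KO_empty, at 8.01 to 10, above T6B_MUT. Most of each mesoderm sum was Kdr and Eomes. Kdr had group means of 3.77 CPM in W, 9.12 in Ago2KO, 1.47 in T6B_MUT, 4.43 in T6B_WT and 4.98 in Ago2KO_empty. Of the 6 markers, 2 were called higher in Ago2KO (10.2% of all genes), 1 in T6B_WT (9.29%) and 2 in Ago2KO_empty (16.4%). None was lower in these groups. Without replicate 2 of Ago2KO_empty, 1 was higher there (12.4%). The 5 glial and neural crest markers of 7 reached 20.9 to 69.5 CPM, almost all of it Foxd3, a gene that embryonic stem cells also express, at 17.9 to 49.5 CPM in group means. The 3 feeder markers of 4 summed to 7.15 to 7.68 CPM in W and 10.5 to 11.6 in Trim71KO, to 4.04 to 4.68 in T6B_MUT and 8.79 to 9.38 in Trim71KO_empty, and to 2.73 to 7.82 in the other groups. Most of each sum was Thy1, with group means of 6.35 CPM in W, 10.2 in Trim71KO, 3.37 in T6B_MUT and 7.78 in Trim71KO_empty. The collagen gene Col1a1 had means of 0.85, 0.549, 0.8 and 0.866 CPM in the same order, and Col1a2 at most 0.451. The 3 trophoblast markers of 5 reached at most 6.51 CPM. The part of these cells in the results below was not tested, and in bulk RNA more cells of a type and more RNA per cell cannot be told apart.

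Per length of transcript, the 9 genes spanned a wide range. By the deposited RPKM (reads scaled by the authors for gene length and depth), Tubb3 was highest in each group, at 38.3 to 62.3 in group means, and in W it stood above 92.9% of all rows. Pax6 was lowest in each group, at 0.014 to 0.105 RPKM, above 8% of rows in W. In W the order below Tubb3 was Nes (2.08 ± 0.03 RPKM, SD, n = 3), Celf4 (1.96 ± 0.04), Sox11 (1.93 ± 0.06), Sox3 (1.80 ± 0.26), Sox1 (1.71 ± 0.18), Ncam1 (1.58 ± 0.06), Map2 (0.185 ± 0.02) and Pax6 (0.0781 ± 0.03). From Celf4 down to Ncam1, neighbours in that order lay within their spread of each other. In Trim71KO, Ncam1 (3.72 ± 0.10 RPKM) and Sox11 (3.09 ± 0.52) came next after Tubb3. In Ago2KO it was Ncam1 (3.65 ± 0.05 RPKM) and Nes (2.60 ± 0.16), and Celf4 lay at 1.08 ± 0.11 RPKM.

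**Figure D1:**
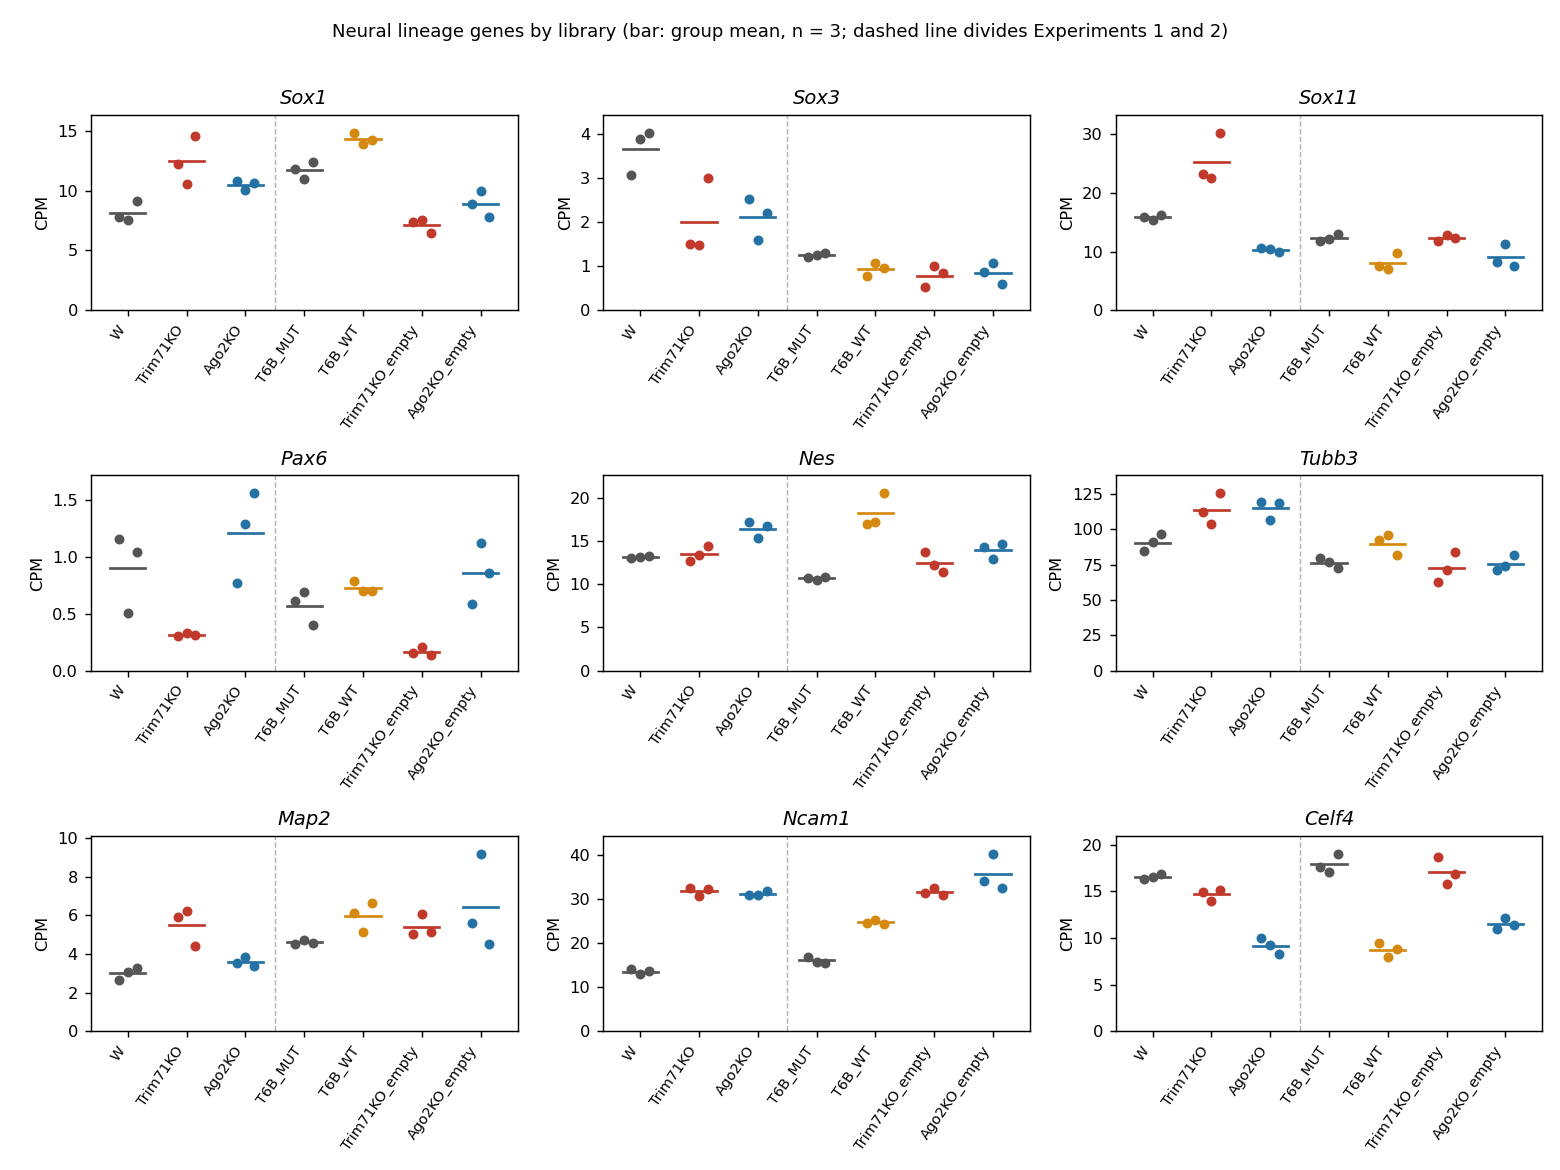
CPM of each of the 9 neural genes (vertical axis, linear, starting at 0) in the 21 libraries by group, with points for libraries and bars for group means (n = 3), and a dashed line between the experiments. Ncam1 lies above its control in all 5 other groups, Pax6 is lowest in both Trim71-edited groups, and Celf4 is lowest in T6B_WT and Ago2KO.

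The 9 genes did not move as a block. In Trim71KO against W, 7 of 9 were called by edgeR's quasi-likelihood test at an adjusted p under 0.05, where 32.6% of all 21210 genes tested were. Higher were 5 of them (Sox1, Sox11, Tubb3, Map2, Ncam1), against a background of 16.9%, and 2 were lower (Sox3, Pax6), against 15.6%. The median log2 fold change of the 9 was 0.33, beside −0.001 over all genes. In Ago2KO against W, 6 of 9 were called (18.0% of all genes), 4 higher (10.2%; Sox1, Nes, Tubb3, Ncam1) and 2 lower (7.78%; Sox11, Celf4). The median was again 0.33, beside −0.003 over all genes. Both comparisons share the W libraries.

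T6B_WT against T6B_MUT gave 5 calls among the 9 (16.0% of 21505 genes), of which 3 were higher (9.29%; Sox1, Nes, Ncam1) and 2 lower (6.69%; Sox11, Celf4), with a median of 0.29 beside 0.007. In Trim71KO_empty against T6B_MUT only 4 were called (27.8% of all genes), 1 higher (14.4%; Ncam1) and 3 lower (13.4%; Sox1, Sox3, Pax6), and the median was −0.07 beside 0.003. For the libraries labelled Ago2KO_empty against T6B_MUT, 5 were called (28.8%), 2 higher (16.4%; Nes, Ncam1) and 3 lower (12.4%; Sox1, Sox11, Celf4), with a median of −0.01 beside 0.027. Without replicate 2 of that group, Sox3 was called lower as well, which made 6 (23.7% of all genes), 2 higher (12.4%) and 4 lower (11.2%). The 3 comparisons of Experiment 2 share the T6B_MUT libraries.

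**Figure D2:**
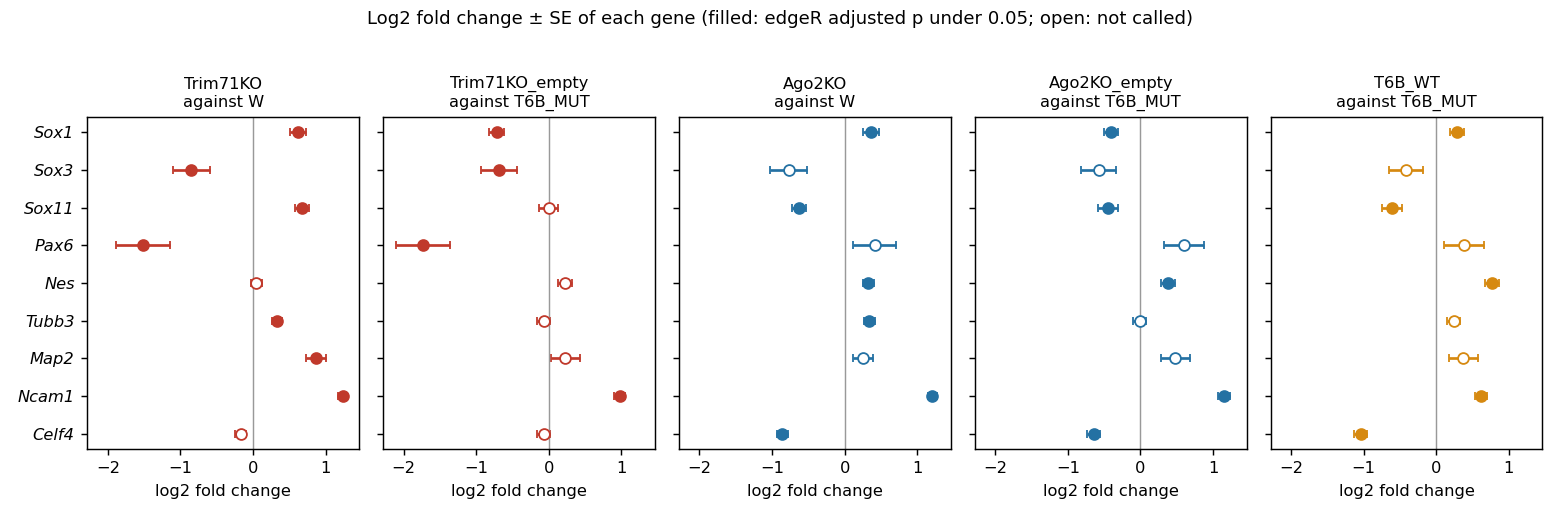
Log2 fold changes of the 9 genes (horizontal axis) with their standard errors in the 5 comparisons with a control. Filled points have an edgeR quasi-likelihood adjusted p under 0.05. Ncam1 is filled to the right of 0 in every panel, with values of 0.62 to 1.23, and Pax6 and Sox3 are filled to the left in both Trim71-edited groups.

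Sox1 (ENSMUSG00000096014, chromosome 8, 12395295 to 12400126, plus strand of GRCm38) encodes a SoxB1 transcription factor and is among the earliest markers of neural commitment. It stood at 7.79, 7.53 and 9.13 CPM in W, 12.2, 10.6 and 14.6 CPM in Trim71KO and 10.8, 10.1 and 10.6 CPM in Ago2KO. Each edited library of Experiment 1 lay above every W library. Sox1 rose by 0.62 in Trim71KO (log2 fold change, SE 0.11, adjusted p 0.0006) and by 0.37 in Ago2KO (SE 0.11, adjusted p 0.0337; edgeR quasi-likelihood for both). The second call was lost in 5 of the 6 fits that each left out 1 library (all but that without W replicate 3), where adjusted p was 0.0572 to 0.142.

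In Experiment 2 the order of the Sox1 values was different. They were 11.8, 11.0 and 12.4 CPM in T6B_MUT, 14.9, 13.9 and 14.3 CPM in T6B_WT, 7.41, 7.50 and 6.45 CPM in Trim71KO_empty and 8.85, 9.93 and 7.82 CPM in the libraries labelled Ago2KO_empty. T6B_WT lay above T6B_MUT and both edited groups below it, with no overlap. Sox1 fell by 0.72 in Trim71KO_empty (SE 0.10, adjusted p 2.72e-05) and by 0.41 in the libraries labelled Ago2KO_empty (SE 0.10, adjusted p 0.00497; 0.51 without replicate 2), by edgeR quasi-likelihood. In T6B_WT it rose by 0.29 (edgeR quasi-likelihood adjusted p 0.0455, SE 0.10), a call that did not survive leaving out any single library (adjusted p 0.0679 to 0.185).

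Sox3 (ENSMUSG00000045179, chromosome X, 60891366 to 60893430, minus strand), a second SoxB1 factor of the early neural plate, went the other way from Sox1 in Trim71KO. It stood at 3.08, 3.89 and 4.03 CPM in W, 1.51, 1.47 and 3.00 CPM in Trim71KO, and 2.53, 1.59 and 2.21 CPM in Ago2KO. No edited library reached the lowest W library, and replicate 3 of Trim71KO was close to it. The log2 fold change was −0.85 in Trim71KO (edgeR quasi-likelihood adjusted p 0.0230, SE 0.25) and −0.77 in Ago2KO (SE 0.25, adjusted p 0.0540, not called). The Trim71KO call was lost when W replicate 2, W replicate 3, Trim71KO replicate 1 or Trim71KO replicate 2 was left out (adjusted p 0.0708 to 0.0848), and the Ago2KO value was called with DESeq2 (adjusted p 0.00883).

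Sox3 was lower throughout Experiment 2, at 1.20 to 1.30 CPM in T6B_MUT, 0.786 to 1.06 CPM in T6B_WT, 0.514 to 0.993 CPM in Trim71KO_empty and 0.597 to 1.07 CPM in the libraries labelled Ago2KO_empty. All 9 libraries of the last 3 groups lay below T6B_MUT. Only Trim71KO_empty was called (edgeR quasi-likelihood adjusted p 0.0452, log2 fold change −0.69, SE 0.25), and 5 of 6 fits without 1 library lost that call (all but that without Trim71KO_empty replicate 2), as did DESeq2 (adjusted p 0.0654). Counts were 20 to 75 per library there.

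Sox11 (ENSMUSG00000063632, chromosome 12, 27334264 to 27342574, minus strand) encodes a SoxC factor of immature neurons and separated the edited lines. It stood at 15.9, 15.4 and 16.3 CPM in W, 23.2, 22.5 and 30.3 CPM in Trim71KO and 10.6, 10.4 and 9.86 CPM in Ago2KO, 3 groups that did not overlap. It rose by 0.68 in Trim71KO (SE 0.10, adjusted p 7.69e-05) and fell by 0.63 in Ago2KO (SE 0.10, adjusted p 5.48e-04), by edgeR quasi-likelihood. Set directly against each other, Trim71KO was higher than Ago2KO by 1.31 (edgeR quasi-likelihood adjusted p 1.75e-07, SE 0.10).

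Sox11 under T6B resembled Ago2KO in direction. It stood at 11.7, 12.1 and 13.0 CPM in T6B_MUT and 7.54, 6.97 and 9.67 CPM in T6B_WT, a fall of 0.61 on the log2 scale (edgeR quasi-likelihood adjusted p 0.00479, SE 0.14). The libraries labelled Ago2KO_empty held 8.14, 11.3 and 7.61 CPM, all below T6B_MUT, and the log2 fold change was −0.45 (edgeR quasi-likelihood adjusted p 0.0200, SE 0.13). That call was lost without T6B_MUT replicate 3 or Ago2KO_empty replicate 1 (adjusted p 0.0530 and 0.0696), and the value was −0.66 without replicate 2. Trim71KO_empty, at 11.8, 12.8 and 12.3 CPM, overlapped T6B_MUT, and its log2 fold change was −0.001 (SE 0.13).

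Pax6 (ENSMUSG00000027168, chromosome 2, 105668900 to 105697364, plus strand), a paired-box factor of neural progenitors and the eye, was the least abundant of the 9. Counts were 24 to 56 per library in W and 12 to 15 in Trim71KO, or 1.16, 0.511 and 1.04 CPM against 0.301, 0.334 and 0.312 CPM. In Experiment 2 it stood at 0.608, 0.695 and 0.398 CPM in T6B_MUT and 0.154, 0.204 and 0.140 CPM in Trim71KO_empty, from 5 to 7 counts per library. Neither Trim71-edited group overlapped its control. Pax6 fell by 1.51 in Trim71KO (log2 scale, SE 0.37, adjusted p 0.0056) and by 1.74 in Trim71KO_empty (SE 0.37, adjusted p 0.00174; edgeR quasi-likelihood for both).

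In the other groups Pax6 lay at or above its control without a call. It stood at 0.771, 1.29 and 1.56 CPM in Ago2KO, with a log2 fold change of 0.42 (edgeR quasi-likelihood adjusted p 0.383, SE 0.29). The log2 fold changes were 0.38 (SE 0.28) in T6B_WT and 0.60 (SE 0.28; 0.35 without replicate 2) in the libraries labelled Ago2KO_empty. Pax6, the 1 gene with the AGCACTT match shown above, had no called change in the Ago2-edited or T6B_WT groups. It held 36 to 80 counts per library in Ago2KO, 27 to 32 in T6B_WT and 24 to 41 in the libraries labelled Ago2KO_empty. At such counts and standard errors a modest change could go uncalled, and a part of the match was not tested. Directly compared, Trim71KO held less Pax6 than Ago2KO (edgeR quasi-likelihood adjusted p 7.26e-04, log2 fold change −1.93, SE 0.36). Likewise Trim71KO_empty held less than the libraries labelled Ago2KO_empty (−2.34, SE 0.36, adjusted p 6e-05, edgeR quasi-likelihood; −2.10 without replicate 2).

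Nes (ENSMUSG00000004891, chromosome 3, 87971078 to 87980451, plus strand) encodes nestin, the intermediate filament of neural progenitors. It stood at 13.0, 13.1 and 13.3 CPM in W, 12.8, 13.5 and 14.5 CPM in Trim71KO and 17.2, 15.4 and 16.8 CPM in Ago2KO. Trim71KO overlapped W and Ago2KO did not. Nes rose by 0.33 in Ago2KO (edgeR quasi-likelihood adjusted p 0.00583, SE 0.07), while the value for Trim71KO was 0.05 (SE 0.07, adjusted p 0.688).

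Among the 5 comparisons with a control, the log2 fold change of Nes was largest under T6B. It stood at 10.7, 10.5 and 10.8 CPM in T6B_MUT and 17.0, 17.3 and 20.6 CPM in T6B_WT, a log2 fold change of 0.77 (edgeR quasi-likelihood adjusted p 1.69e-05, SE 0.09). The libraries labelled Ago2KO_empty held 14.3, 12.9 and 14.7 CPM and were called higher at 0.38 (edgeR quasi-likelihood adjusted p 0.00579, SE 0.10; 0.42 without replicate 2). Trim71KO_empty held 13.8, 12.3 and 11.4 CPM, above each T6B_MUT library, but its value of 0.22 (SE 0.10) was not called (adjusted p 0.0917).

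Tubb3 (ENSMUSG00000062380, chromosome 8, 123411424 to 123422015, plus strand) encodes the neuronal beta-tubulin and Map2 (ENSMUSG00000015222, chromosome 1, 66175273 to 66442583, plus strand) a microtubule-associated protein of dendrites. Tubb3 stood at 84.4, 90.7 and 96.8 CPM in W, 112, 104 and 126 CPM in Trim71KO and 119, 107 and 118.5 CPM in Ago2KO, both edited groups being above W. It rose by 0.33 in Trim71KO (SE 0.07, adjusted p 0.00268) and by 0.34 in Ago2KO (SE 0.07, adjusted p 0.00412), by edgeR quasi-likelihood. In Experiment 2 it stood at 72.4 to 79.8 CPM in T6B_MUT, 81.5 to 96.2 in T6B_WT, 62.9 to 83.6 in Trim71KO_empty and 71.1 to 81.7 in the libraries labelled Ago2KO_empty. Only T6B_WT was clear of T6B_MUT. No value was called, T6B_WT being at 0.24 (SE 0.09, adjusted p 0.0872), which passed the threshold when those 2 groups were fitted alone (adjusted p 0.00795).

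Map2 stood at 2.66, 3.04 and 3.29 CPM in W, 5.90, 6.23 and 4.39 CPM in Trim71KO and 3.53, 3.86 and 3.38 CPM in Ago2KO. Both edited groups were above W, and Ago2KO only just. The log2 fold change was 0.87 in Trim71KO (edgeR quasi-likelihood adjusted p 2.15e-04, SE 0.14) and 0.25 in Ago2KO (SE 0.14, adjusted p 0.263). Trim71KO was also higher than Ago2KO by 0.62 (edgeR quasi-likelihood adjusted p 0.00279, SE 0.14).

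In Experiment 2 no Map2 difference from T6B_MUT was called. T6B_MUT held 4.51 to 4.75 CPM, T6B_WT 5.14 to 6.63, Trim71KO_empty 5.04 to 6.04, and the libraries labelled Ago2KO_empty 5.62, 9.20 and 4.52 CPM in replicates 1, 2 and 3. Replicate 2 of the last group, the library with the high Ago2 value, held the highest Map2 level of all. Its log2 fold change of 0.48 was 0.12 without replicate 2, and 0.65 without replicate 3, where it was called (adjusted p 0.00365, edgeR quasi-likelihood). The values of T6B_WT (0.37, SE 0.20) and Trim71KO_empty (0.23, SE 0.20) were smaller than in Trim71KO. That of T6B_WT was called when those 2 groups were fitted alone (adjusted p 0.0157).

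Ncam1 (ENSMUSG00000039542, chromosome 9, 49502136 to 49798925, minus strand), the neural cell adhesion molecule, was called higher in each of the 5 comparisons with a control, which rest on 2 sets of control libraries. It stood at 14.0, 12.9 and 13.6 CPM in W, 32.4, 30.7 and 32.2 CPM in Trim71KO and 30.9, 30.9 and 31.8 CPM in Ago2KO. The edited libraries lay far above W and overlapped each other. The log2 fold change was 1.23 in Trim71KO (SE 0.06, adjusted p 2.45e-09) and 1.21 in Ago2KO (SE 0.06, adjusted p 1.16e-08), by edgeR quasi-likelihood. The difference between these groups was 0.03 (SE 0.06, adjusted p 0.764).

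In Experiment 2, Ncam1 stood at 16.9, 15.8 and 15.5 CPM in T6B_MUT and 24.5, 25.1 and 24.3 CPM in T6B_WT. The edited lines were higher again, at 31.2, 32.5 and 30.8 CPM in Trim71KO_empty and 34.1, 40.2 and 32.5 CPM in the libraries labelled Ago2KO_empty. No group overlapped T6B_MUT. Against T6B_MUT it rose by 0.62 in T6B_WT (SE 0.08, adjusted p 2.98e-05), 0.97 in Trim71KO_empty (SE 0.08, adjusted p 5.16e-08) and 1.15 in the libraries labelled Ago2KO_empty (SE 0.08, adjusted p 1.15e-08; 1.04 without replicate 2), all by edgeR quasi-likelihood.

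Celf4 (ENSMUSG00000024268, chromosome 18, minus strand) encodes an RNA-binding protein of neurons and was called lower in Ago2KO, in T6B_WT and in the libraries labelled Ago2KO_empty. It stood at 16.3, 16.6 and 16.8 CPM in W, 14.9, 14.0 and 15.1 CPM in Trim71KO and 9.98, 9.21 and 8.26 CPM in Ago2KO. In Experiment 2 it stood at 17.7, 17.0 and 19.0 CPM in T6B_MUT, 9.43, 7.96 and 8.79 CPM in T6B_WT, 18.7, 15.7 and 16.9 CPM in Trim71KO_empty and 11.0, 12.1 and 11.4 CPM in the libraries labelled Ago2KO_empty. Of the Trim71-edited groups, Trim71KO lay just below W and Trim71KO_empty overlapped T6B_MUT.

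The log2 fold change of Celf4 was −0.86 in Ago2KO (SE 0.08, adjusted p 4.68e-06), −1.04 in T6B_WT (SE 0.09, adjusted p 3.09e-07) and −0.64 in the libraries labelled Ago2KO_empty (SE 0.09, adjusted p 4.66e-05; −0.70 without replicate 2), by edgeR quasi-likelihood. It was −0.17 in Trim71KO (SE 0.08, adjusted p 0.103) and −0.07 in Trim71KO_empty (SE 0.09, adjusted p 0.608), neither called. The difference between the edited lines was itself called in both experiments, at 0.68 (SE 0.08, adjusted p 1.19e-05) for Trim71KO against Ago2KO and 0.57 (SE 0.09, adjusted p 8.05e-05; 0.62 without replicate 2) for Trim71KO_empty against the libraries labelled Ago2KO_empty, by edgeR quasi-likelihood.

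These direct tests of the edited lines gave 5 calls among the 9 genes in Experiment 1 (34.2% of all genes). Higher in Trim71KO were 3 of them (17.1% of all genes; Sox11, Map2, Celf4) and lower were 2 (17.1%; Pax6, and Nes at −0.28, SE 0.07, adjusted p 0.00793, edgeR quasi-likelihood). In Experiment 2, where both lines carried the empty plasmid, 4 of 9 were called (31.6% of all genes), 2 higher in Trim71KO_empty (14.7%; Sox11 and Celf4) and 2 lower (16.9%; Pax6 and Sox1). Without Ago2KO_empty replicate 2, 3 were called (27.6% of all genes), 2 higher (13.7%) and 1 lower (13.9%). Sox11 was at 0.45 (SE 0.14, adjusted p 0.0189; 0.65 without replicate 2) and Sox1 at −0.32 (SE 0.10, adjusted p 0.0244), by edgeR quasi-likelihood. For Sox1, the value was −0.22 (adjusted p 0.140) once replicate 2 of the Ago2KO_empty libraries was removed, and its call was also lost without their replicate 1 (adjusted p 0.0649) or Trim71KO_empty replicate 3 (adjusted p 0.126). Without their replicate 1, Sox11 was not called either (0.39, adjusted p 0.0614).

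Whether an effect differed between the experiments was tested on all 21 libraries. For the Trim71-edited line, 2 of 9 genes differed (10.1% of 22258 genes), both lower in Experiment 2. These were Sox1, by −1.34 (SE 0.15, adjusted p 1.13e-06), and Sox11, by −0.68 (SE 0.17, adjusted p 0.0116; 0.0503 without T6B_MUT replicate 3), edgeR quasi-likelihood. Tubb3 (−0.40, SE 0.13, adjusted p 0.0529) and Map2 (−0.64, SE 0.26, adjusted p 0.123) were not called. For the Ago2-edited line, 1 of 9 differed (2.13% of genes), again Sox1, by −0.78 (edgeR quasi-likelihood adjusted p 0.00315, SE 0.15; −0.86 without Ago2KO_empty replicate 2). The control is untransfected in Experiment 1 and transfected with a mutant peptide in Experiment 2, so experiment, plasmid and control cannot be told apart here.

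**Figure D3:**
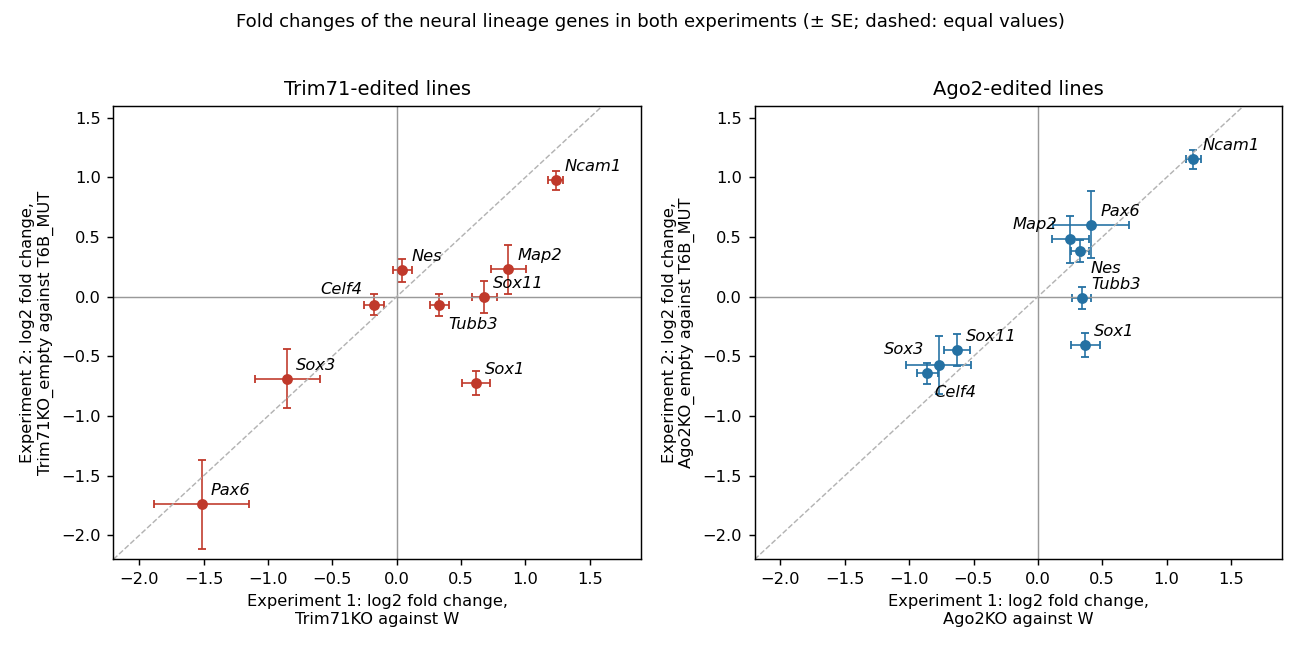
Log2 fold change of each gene in Experiment 1 (horizontal) and Experiment 2 (vertical) with standard errors, for the Trim71-edited lines (left) and the Ago2-edited lines (right). Sox1 lies in the lower right quadrant of both panels, at 0.62 and −0.72 on the left and 0.37 and −0.41 on the right, while Ncam1, Pax6 and Celf4 keep their direction.

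Comparisons without a library in common could be set side by side. Ago2KO against W and T6B_WT against T6B_MUT had the same sign in 9 of 9 neural genes, where 67.7% of the 20588 genes tested in both did. Called in both were 5 of the 9 (7.84% of all genes), which made 5 of the 6 calls in Ago2KO and all 5 in T6B_WT: Sox1, Nes and Ncam1 upward and Sox11 and Celf4 downward. Of all genes called in both, 95.3% went in the same direction, so the shared direction is not particular to the neural genes. Trim71KO against W and T6B_WT against T6B_MUT had the same sign in 7 of 9 (53% of all genes), and 3 were called in both (7.74% of all genes; 3 of the 7 calls in Trim71KO and 3 of the 5 in T6B_WT), of which Sox11 went in opposite directions. Here 51.2% of all genes called in both went in the same direction. Between the 2 experiments, the Trim71-edited line kept the sign of 6 of 9 (68.9% of all genes) and the Ago2-edited line that of 7 of 9 (71.9%), also without Ago2KO_empty replicate 2 (7 of 9, 71.3%).

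Both Sox1 and Tubb3 are genes of chromosome 8, which differed from the rest of the genome in the Trim71-edited line. The median log2 fold change of chromosome 8 was 0.20 in Trim71KO against W, with the 19 other chromosomes between −0.07 and 0.07, and 0.09 in Trim71KO_empty against T6B_MUT, with the others between −0.04 and 0.05. In single libraries, 661 genes of chromosome 8 lay 0.21 to 0.25 above those elsewhere in Trim71KO and 0.09 to 0.11 in Trim71KO_empty. In Ago2KO the chromosome median was 0.005.

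Fitted among genes of chromosome 8 alone, Sox1 was still called higher in Trim71KO (0.42, SE 0.10, adjusted p 0.00582, edgeR quasi-likelihood) and lower in Trim71KO_empty (−0.82, adjusted p 5.08e-06). Tubb3 was no longer called in Trim71KO (0.13, SE 0.06, adjusted p 0.109, edgeR quasi-likelihood), and relative to the chromosome it was lower in Trim71KO than in Ago2KO (−0.20, adjusted p 0.0216). In Ago2KO the Tubb3 value was 0.34 in this fit, as before.

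**Figure D4:**
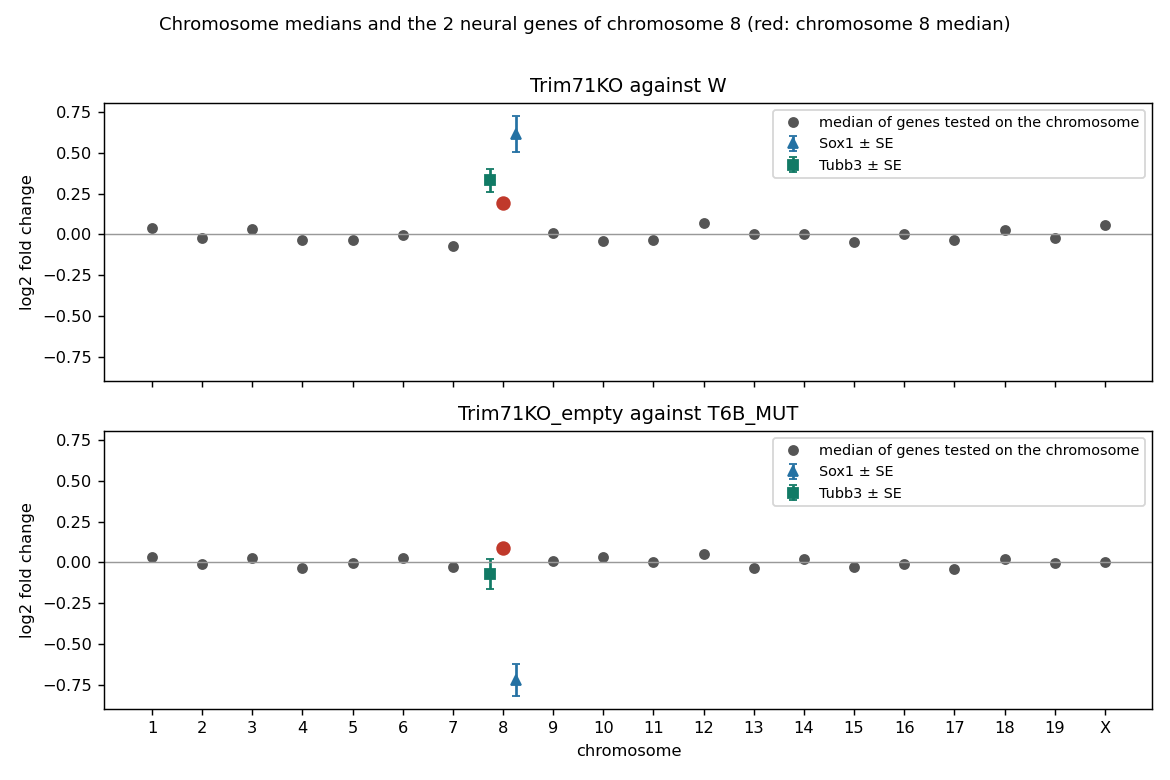
Median log2 fold change of the genes tested on each chromosome (grey, chromosome 8 in red), with Sox1 and Tubb3 and their standard errors, for Trim71KO against W (top) and Trim71KO_empty against T6B_MUT (bottom). Chromosome 8 lies at 0.20 and 0.09 and stands apart from the others in both panels, and Sox1 is above its chromosome's median at the top and below it at the bottom.

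For context, 6 lists of other neural genes, grouped by function, were counted in the same fits. In Trim71KO against W, 22 of the 68 tested were higher (32.4%, beside 16.9% of all genes) and 23 lower (33.8%, beside 15.6%). In Trim71KO_empty against T6B_MUT, 14 of 72 were higher (19.4%, beside 14.4%) and 22 lower (30.6%, beside 13.4%). In Ago2KO, 19 of 68 were higher (27.9%, beside 10.2%) and 6 lower (8.82%, beside 7.78%). In T6B_WT, 19 of 72 were higher (26.4%, beside 9.29%) and 4 lower (5.56%, beside 6.69%). In the libraries labelled Ago2KO_empty, 29 of 72 were higher (40.3%, beside 16.4%) and 6 lower (8.33%, beside 12.4%), and without replicate 2 these were 26 and 7 (beside 12.4% and 11.2% of all genes). All genes also had more higher than lower calls in these last 3 comparisons. There the stem cell marker medians stayed near 0, with calls in both directions, and the mesoderm sums, most of them Kdr and Eomes, lay above control. Pou5f1 was called lower in T6B_WT and in the libraries labelled Ago2KO_empty, where Nanog and Sox2 were called higher. Without replicate 2 of Ago2KO_empty, Sox2 alone was called higher there. The part of other cell types was not tested. The median log2 fold changes of the lists were 0.008, −0.14, 0.14, 0.21 and 0.32 (0.22 without replicate 2) in the order given, beside −0.001, 0.003, −0.003, 0.007 and 0.027 (−0.007) over all genes.

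Directly compared, 15 of 68 were higher in Trim71KO than in Ago2KO (22.1%, beside 17.1% of all genes) and 28 lower (41.2%, beside 17.1%). In Trim71KO_empty against the libraries labelled Ago2KO_empty, 12 of 72 were higher (16.7%, beside 14.7%) and 33 lower (45.8%, beside 16.9%), and 11 and 30 without replicate 2 (beside 13.7% and 13.9%).

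Among progenitor transcription factors (19 of 31 listed in the table, 16 tested in Experiment 1 and all 19 in Experiment 2), Trim71KO had 2 higher (12.5%, beside 16.9% of all genes) and 6 lower (37.5%, beside 15.6%). Trim71KO_empty had 4 higher (21.1%, beside 14.4%) and 4 lower (21.1%, beside 13.4%). The median log2 fold change was −0.26 in Trim71KO and 0.05 in Trim71KO_empty. Lower calls outnumbered higher ones in Trim71KO only, while their share lay above that of all genes in both groups. The difference between these counts was not tested. Zfp521, a zinc-finger factor that promotes neural fate, rose from 0.675 ± 0.17 CPM in W to 8.02 ± 0.72 CPM in Trim71KO (SD, n = 3), a log2 fold change of 3.56 (adjusted p 1.03e-09, edgeR quasi-likelihood). In Experiment 2 Zfp521 was not among the genes named by rule, and its values there are not given. Pou3f1, a POU factor of the epiblast and neural progenitors, fell from 10.5 ± 1.78 to 3.88 ± 1.21 CPM in Trim71KO, and to 5.45 ± 1.38 CPM in Ago2KO. Pou3f1 was called lower again in Trim71KO_empty (1.44 ± 0.42 CPM) and in T6B_WT (1.92 ± 0.45) than in T6B_MUT (3.06 ± 0.35). Zic2, a factor of the neural plate, was called higher in Ago2KO (7.23 ± 0.65 CPM) than in W (4.01 ± 0.69 CPM). In Experiment 2 it stood at 3.17 ± 0.25 CPM in T6B_MUT, 7.09 ± 0.11 in T6B_WT, 6.93 ± 0.93 in the libraries labelled Ago2KO_empty (6.84 and 6.05 CPM without replicate 2) and 1.57 ± 0.31 in Trim71KO_empty. Each of these 3 differences from T6B_MUT was called, that of Ago2KO_empty at 1.12 and, without replicate 2, 1.00 on the log2 scale.

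Of 11 proneural and Notch genes tested in Experiment 1, 4 were higher (36.4%, beside 16.9% of all genes) and 6 lower (54.5%, beside 15.6%) in Trim71KO. In Ago2KO 4 were higher (beside 10.2%) and 1 lower (9.09%, beside 7.78%). Of 12 tested in Experiment 2, 5 were higher (41.7%, beside 9.29%) and none lower in T6B_WT. Trim71KO_empty had 1 higher (8.33%, beside 14.4%) and 4 lower (33.3%, beside 13.4%). The libraries labelled Ago2KO_empty had 7 higher (58.3%, beside 16.4%) and 1 lower (8.33%, beside 12.4%). Without replicate 2 these were also 7 and 1 (beside 12.4% and 11.2%). Set against Ago2KO directly, Trim71KO had 2 of the 11 higher (18.2%, beside 17.1%) and 9 lower (81.8%, beside 17.1%). Trim71KO_empty against Ago2KO_empty had 2 of the 12 higher (16.7%, beside 14.7%) and 6 lower (50.0%, beside 16.9%). Without replicate 2 of Ago2KO_empty these were 1 and 6 (beside 13.7% and 13.9%). Neurod1, a proneural factor, fell by 0.99 in Trim71KO (adjusted p 3.63e-05) and rose by 1.05 in Ago2KO (adjusted p 1.47e-05) and 1.53 in T6B_WT (adjusted p 2.18e-07), by edgeR quasi-likelihood. Dll1, a Notch ligand of neural precursors, fell by 1.61 in Trim71KO and by 0.87 in Trim71KO_empty.

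Cytoskeletal and adhesion genes of neurons, the list closest to Tubb3, Map2 and Ncam1, had 10 of 18 higher (55.6%, beside 10.2% of all genes) and 1 lower (5.56%, beside 7.78%) in Ago2KO. In T6B_WT 9 were higher (50.0%, beside 9.29%) and 1 lower (beside 6.69%). Trim71KO had 7 higher and 7 lower (38.9% each, beside 16.9% and 15.6%). Trim71KO_empty had 3 higher (16.7%, beside 14.4%) and 10 lower (55.6%, beside 13.4%). Nefl and Nefm, subunits of neurofilaments, rose by 0.99 and 1.15 in Ago2KO. In T6B_WT, Nefl rose by 1.29, and Nrcam, an adhesion molecule of axons, by 2.23, from 0.984 ± 0.16 to 4.65 ± 0.15 CPM. Ina, a neuronal intermediate filament, fell by 1.52 in Trim71KO and by 1.20 in Trim71KO_empty. Their adjusted p ran from 1.72e-09 for Nefl in T6B_WT to 4.24e-06 for Nefm in Ago2KO (edgeR quasi-likelihood).

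The relatives of the Sox genes included Sox21, a SoxB2 factor, which was called higher in each of the 5 comparisons with a control, by 0.72 to 1.20 (1.23 in place of 1.20 without Ago2KO_empty replicate 2). Sox2, a SoxB1 factor of stem cells and neural progenitors, was called in neither comparison with W (0.10 and 0.17) but in all 3 with T6B_MUT, higher by 0.21 in T6B_WT (adjusted p 0.047), 0.24 in Trim71KO_empty (adjusted p 0.0167) and 0.21 in the libraries labelled Ago2KO_empty (adjusted p 0.0325; 0.24 without replicate 2), by edgeR quasi-likelihood. Whether the Sox2 effects differed between experiments was tested for the edited lines, and neither difference was called (adjusted p 0.549 for Trim71 and 0.949 for Ago2, edgeR quasi-likelihood). Sox12, a SoxC factor like Sox11, fell by 0.55 in Trim71KO, where Sox11 rose. Of 12 neuronal RNA-binding proteins, relatives of Celf4 among them, 6 were higher (50.0%, beside 16.9% of all genes) and 1 lower (8.33%, beside 15.6%) in Trim71KO. In Ago2KO 2 were higher (16.7%, beside 10.2%), in T6B_WT and Trim71KO_empty 1 each (8.33%, beside 9.29% and 14.4%), and in the libraries labelled Ago2KO_empty 3 (25%, beside 16.4%; 2 without replicate 2). Msi1, a translational regulator of neural progenitors, rose by 0.92 in Trim71KO and was not called in Trim71KO_empty. Ptbp2, a splicing factor of neurons, rose by 0.36 in Ago2KO and fell by 0.57 in Trim71KO_empty. Of 7 repressors of neuronal genes, 2 were higher (28.6%, beside 16.9%) and 2 lower (28.6%, beside 15.6%) in Trim71KO. In Trim71KO_empty 3 were higher (42.9%, beside 14.4%) and 1 lower (14.3%, beside 13.4%), and in Ago2KO none was higher and 2 were lower (28.6%, beside 7.78%). Among them Rcor1, the corepressor that works with REST, rose from 29.6 ± 1.11 to 55.2 ± 1.59 CPM in Trim71KO and from 31.9 ± 1.65 to 58.8 ± 0.78 CPM in Trim71KO_empty, by 0.90 and 0.89, and fell by 0.35 in Ago2KO.

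**Figure D5:**
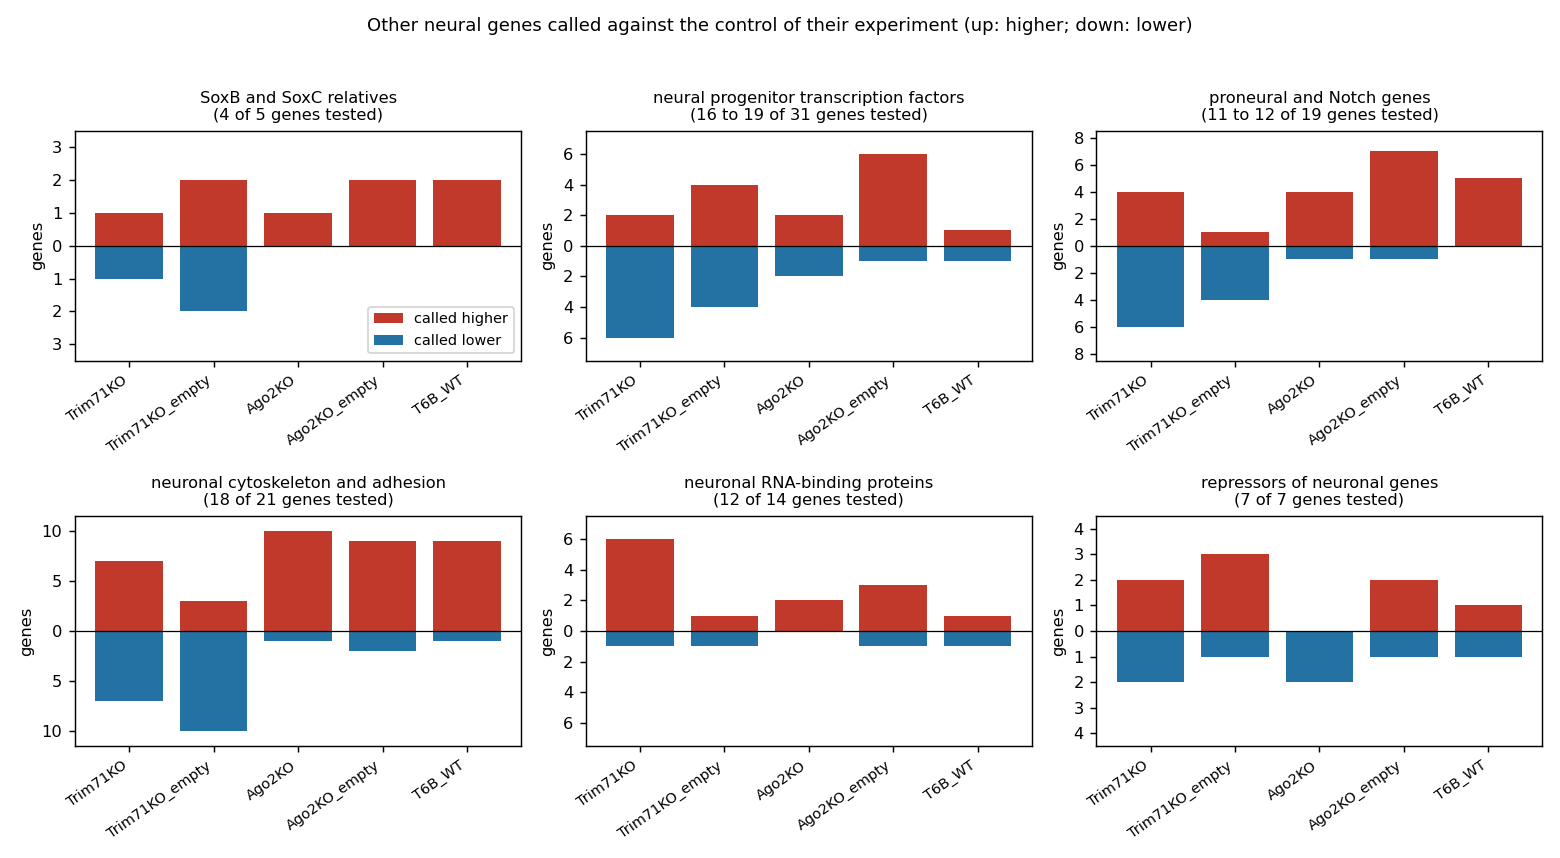
Number of genes called higher (red, upward) and lower (blue, downward) in each of the 6 lists of other neural genes, for the 5 comparisons with a control. Panel titles give how many listed genes were tested. For cytoskeletal and adhesion genes the bars are 10 up and 1 down in Ago2KO and 3 up and 10 down in Trim71KO_empty.

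Across the 21 libraries, after the mean of each experiment was subtracted, the 9 genes did not follow 1 pattern. Pearson's r was −0.86 between Nes and Celf4, 0.75 between Sox11 and Celf4, −0.71 between Sox3 and Ncam1, −0.70 between Sox11 and Pax6 and 0.65 between Sox1 and Tubb3, the chromosome 8 pair, and 0.02 between Sox1 and Sox11. The libraries of a group share their genotype and treatment, so these values describe the 7 groups more than 21 independent points. The genes most like Ncam1 were Itga9 (r = 0.98) and She (0.97), those most like Sox11 were Tdg (0.94) and Tmpo (0.92), and those most like Celf4 were Yrdc (0.93) and Tmem234 (0.92). Those most like Nes were Tbc1d9 and Dstyk (0.92 and 0.91), and those most like Sox1 were Igf2bp3 and Gsr (0.89 and 0.88).

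Some counts are uncertain in origin, since the sources used here do not give how reads were assigned to strands. Map2 and Ncam1 each share exonic sequence with an antisense gene of the annotation, and Pax6 and Celf4 lie over antisense genes without shared exons. Sox1 and Tubb3 overlap genes of their own strand that have rows of their own in the table. Sox3, Sox11 and Nes overlap no annotated gene. Of the other genes named above, Pou3f1, Neurod1, Dll1, Nefl, Nefm, Ina and Sox21 share exonic sequence with an antisense gene.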

How the data were processed

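Total RNA of 21 libraries from mouse embryonic stem cells was sequenced as stranded TruSeq libraries, per the labels' protocols. The submitters' processing notes name bcl2fastq 2.17, STAR 2.7.3a and the build GRCm38 (mm10); the annotation, the counter and the use of strand are not given in the sources used here. The authors deposited 1 table of raw counts per gene and, per the file headers, RPKM values. Counts entered all tests, and the deposited RPKM served only to compare levels between genes. Annotation was taken from GENCODE M21 on GRCm38, and microRNA sequences from RefSeq.

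Tests were edgeR 4.0.16 quasi-likelihood F tests (R 4.3.3; TMM, robust dispersion, filterByExpr with a minimum count of 10, Benjamini-Hochberg adjustment over all genes tested, called at an adjusted p under 0.05), checked on simulated data. The 9 libraries of Experiment 1 (21210 genes tested), the 12 of Experiment 2 (21505) and all 21 (22258, for differences between experiments) were fitted together. Standard errors were derived from the fold change and F. CPM used the TMM-scaled library size within each experiment. Alternatives were DESeq2 1.42.0, its size factors, no filter, a log2 fold change threshold of 0.5, only the 2 groups compared, a replicate block, leaving out each library, and, added after seeing the data, genes of chromosome 8 alone, leaving out libraries in the tests between experiments, and the list counts without Ago2KO_empty replicate 2.

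The 9 genes, the lists and the markers were chosen with earlier results of these data known. Other genes were named by rule: per list and comparison, up to 2 called genes with the largest change whose groups did not overlap and whose log2 CPM averaged 1 or more, and per neural gene the 2 genes of highest r (log2 of CPM plus 0.5, mean log2 CPM of at least 2). Values printed for such a gene in other comparisons are its own rows of the same fits. No pair of replicates agreed within sampling noise, so each library counted once.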

Additional observations from a re-analysis of the deposited data

Results flagged for a closer look

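The effect of an edited line on 2 neural genes differed between the experiments, by a test of the difference itself on all 21 libraries (edgeR quasi-likelihood, adjusted over 22258 genes). For Sox1 the log2 fold change of the Trim71-edited line was lower in Experiment 2 by −1.34 (SE 0.15, adjusted p 1.13e-06): it was 0.62 against W and −0.72 against T6B_MUT. In the 12 fits without 1 library the difference stayed called, and among chromosome 8 genes alone it was −1.21 (adjusted p 2.1e-06). The Ago2-edited line showed the same sign for Sox1, −0.78 (SE 0.15, adjusted p 0.00315; −0.86 without Ago2KO_empty replicate 2), from 0.37 to −0.41.

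For Sox11 the Trim71 effect differed by −0.68 (SE 0.17, adjusted p 0.0116), from 0.68 against W to −0.001 against T6B_MUT. Without T6B_MUT replicate 3 the difference was −0.61 (adjusted p 0.0503). Between the controls, W held 8.15 ± 0.86 CPM of Sox1 and T6B_MUT 11.7 ± 0.70 CPM, and for Sox11 these were 15.9 ± 0.46 and 12.3 ± 0.68 CPM (SD, n = 3). Those levels were scaled within each experiment and were not tested across them. The controls differ in transfection and experiment, which cannot be told apart.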

How the results depend on the processing

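A threshold of 0.5 on the absolute log2 fold change lowered the number of genes called to 2837 in Trim71KO and 1186 in Ago2KO against W, 3182 in Trim71KO against Ago2KO, 1343 in T6B_WT, 2746 in Trim71KO_empty and 2589 in the libraries labelled Ago2KO_empty against T6B_MUT, and 3356 between the last 2. Of the 9 neural genes it left 3 in Ago2KO, 2 in the libraries labelled Ago2KO_empty and 2 between both empty-plasmid groups. Fitting only T6B_WT and T6B_MUT raised the genes called to 5632. When only the 2 groups compared were fitted, 59 results of the neural genes stayed as called or not called. Another 3 gained a call and 1 lost it. Leaving out 1 library at a time gave 2045 to 2497 genes for T6B_WT (fewest without T6B_MUT replicate 1), 3894 to 8083 for the libraries labelled Ago2KO_empty (fewest without T6B_MUT replicate 1, most without Ago2KO_empty replicate 1), 269 to 1634 for the Ago2 effect between experiments, and 2 to 6 neural genes for Trim71KO_empty against the libraries labelled Ago2KO_empty. Fewer libraries enter these fits, and the cause was not tested further.

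Signs turned only for values that were not called, in fits without 1 library. Their ranges were −0.007 to 0.088 for Nes in Trim71KO, −0.527 to 0.094 for Sox3 and −0.086 to 0.046 for Tubb3 in Trim71KO against Ago2KO, and −0.040 to 0.037 for Sox11 and −0.195 to 0.018 for Tubb3 in Trim71KO_empty. For Tubb3 in the libraries labelled Ago2KO_empty the range was −0.096 to 0.012, and between both empty-plasmid groups it was −0.304 to 0.143 for Sox3, −0.159 to 0.054 for Tubb3 and −0.428 to 0.100 for Map2. Between experiments, the Trim71 effect ranged from −0.011 to 0.612 for Sox3 and −0.421 to 0.055 for Pax6, and the Ago2 effect from −0.015 to 0.268 for Sox11, −0.087 to 0.457 for Pax6, −0.014 to 0.106 for Nes and −0.117 to 0.405 for Map2.

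Same-numbered libraries did not deviate together (correlations 0.34, −0.19 and 0.60 for Trim71KO with W), so the numbers were not taken as pairs. With a replicate block, 6886, 3831, 7188, 3247, 5801, 5976 and 6616 genes were called in the 7 comparisons, in the order Trim71KO and Ago2KO against W, Trim71KO against Ago2KO, T6B_WT, Trim71KO_empty and Ago2KO_empty against T6B_MUT, and Trim71KO_empty against Ago2KO_empty, and 2110 and 404 in the Trim71 and Ago2 tests between experiments. The block made 7 neural genes called in Ago2KO (Sox3 gained, −0.79, adjusted p 0.0263) and 4 in T6B_WT (Sox1 lost, 0.29, adjusted p 0.0601), and changed no other call among the 9. Depth limits Pax6 most, with 5 to 7 counts per library in Trim71KO_empty.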
